A study of Caenorhabditis elegans with 12 samples.

Results

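The 10 genes described here encode RNA-binding proteins that control maternal mRNAs in the germline, oocytes and early embryo of Caenorhabditis elegans: gld-1 (CELE_T23G11.3), lin-41 (CELE_C12C8.3), puf-5 (CELE_F54C9.8), oma-1 (CELE_C09G9.6), oma-2 (CELE_ZC513.6), mex-3 (CELE_F53G12.5), mex-5 (CELE_W02A2.7), mex-6 (CELE_AH6.5), pos-1 (CELE_F52E1.1) and spn-4 (CELE_ZC404.8). They were chosen by name, by their locus tags, from the 46929 genes of the table, and all 10 had enough counts to be among the 14610 genes tested. RNA of whole worms was sequenced in 12 libraries, 3 for each diet: desiccated bovine thymus, a cytoplasmic extract of thymus, a nuclear extract of thymus and the control diet. All worms, controls included, were grown on live bacteria (OPS0 in the labels' spelling) up to the L4 larval stage, and the diets began on day 1 of adulthood. The sources used here do not give strain, dose or age at collection, and each library is RNA of whole animals rather than of isolated germlines.

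In the hermaphrodite gonad, growing oocytes are filled with mRNAs that are stored and translated later, because transcription stops before the oocyte matures and the first embryonic divisions run on maternal RNA. RNA-binding proteins decide when and where each stored mRNA is translated, mostly through its 3′ untranslated region. GLD-1 acts in meiotic prophase, LIN-41, OMA-1, OMA-2 and PUF-5 in growing oocytes, and MEX-3, MEX-5, MEX-6, POS-1 and SPN-4 in the early embryo, where they set apart somatic and germline cells. The mRNAs measured here are those of the regulators themselves, which adult worms hold in the germline and in embryos not yet laid. In whole-worm RNA, fewer germ cells or oocytes and less RNA per cell cannot be told apart. Each level is also relative to the RNA of all tissues, so a lower level need not be a lower amount in the germline.

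All 10 mRNAs had negative log2 fold changes with the nuclear extract against the control (mex-5 was at 0.00 when libraries were scaled to other germline genes), and 4 of them fell: oma-1, oma-2, pos-1 and spn-4. Of all tested genes 47.7% had a negative fold change and 13.3% passed the test, 4.72% lower and 8.62% higher. The 10 mRNAs moved together across libraries, so their signs and calls are not independent of each other. The changes were small, from -9.71% for pos-1 to -12.1% for spn-4 among those that fell. Of the 4 calls that of oma-1 alone held whichever single library of the nuclear extract or the control was left out. No mRNA of the 10 passed in edgeR with desiccated thymus or the cytoplasmic extract (of all tested genes, 3.94% passed with desiccated thymus and 0.650% with the cytoplasmic extract), and none passed between any pair of thymus diets. Germline lists other than these genes had negative medians of similar size with the nuclear extract, and no mRNA of the 10 passed the test when libraries were scaled to other germline genes.

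The 10 mRNAs were abundant, with 9976 to 43968 counts per gene and library, so that counting error was between 0.477% and 1.00%. Library totals were 23105256 to 33447280 counts, of which the 10 genes took 0.799% to 1.00%. Levels are given in CPM, counts scaled to 1000000 counts in tested genes per library after correction by TMM factors. Control replicate 1 had the highest mean level of the 10, at 0.12 above the mean of all libraries in log2 CPM, and the lowest was nuclear extract replicate 3, at -0.07. Ribosomal RNA genes took 14.01% of the counts in desiccated thymus replicate 3 and 0.377% to 2.16% in the other 11 libraries. The labels do not say whether the 3 replicates of a diet came from separate cultures. The p-values thus rest on the spread among libraries, which may be technical.

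Per kilobase of exon, the mean level over all 12 libraries was highest for pos-1, at 1062 CPM per kilobase, and spn-4, at 774. It was 589.7 for puf-5, 559 for mex-5, 551 for oma-2 and 549 for gld-1. Lower levels per kilobase were those of mex-3 (394), mex-6 (339), oma-1 (258) and lin-41 (113). The means of mex-5, oma-2 and gld-1 lay within 1 SD of each other, with SDs over the 4 diet means of 11.1, 23.6 and 16.7 CPM per kilobase. By this measure pos-1 ranked 86 and lin-41 ranked 1159 among the 14610 tested genes, so the set spans mRNAs near the top of the worm transcriptome and one well below them.

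The genes are spread over 4 chromosomes (coordinates of WBcel235). On chromosome I lie gld-1 (7695681 to 7698222, plus strand), mex-3 (127285 to 134270, plus strand) and lin-41 (9334807 to 9342496, minus strand). On chromosome II lie puf-5 (8575541 to 8577787, plus strand) and mex-6 (9524174 to 9526359, plus strand), and on chromosome IV lie oma-1 (8888976 to 8890999, plus strand) and mex-5 (13353723 to 13356104, plus strand). On chromosome V lie spn-4 (6783187 to 6784903, minus strand), oma-2 (8029439 to 8031214, plus strand) and pos-1 (8414086 to 8415254, plus strand). The paralogs oma-1 and oma-2, and mex-5 and mex-6, lie on different chromosomes. In the Ensembl annotation of the same build, pos-1 has the shortest coding sequence, with 264 codons in 2 exons, and lin-41 the longest, with 1147 codons in 16 exons. Annotated 3′ untranslated regions, taking the longest of each gene, were between 294 bases (oma-2) and 1165 bases (lin-41). Exons of spn-4 overlap those of ZC404.15 on the opposite strand, to which the table gives only 1 to 9 counts in any library, and whether strand was used in counting is not stated. No other gene of the 10 has an exon overlap.

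**Figure D1:**
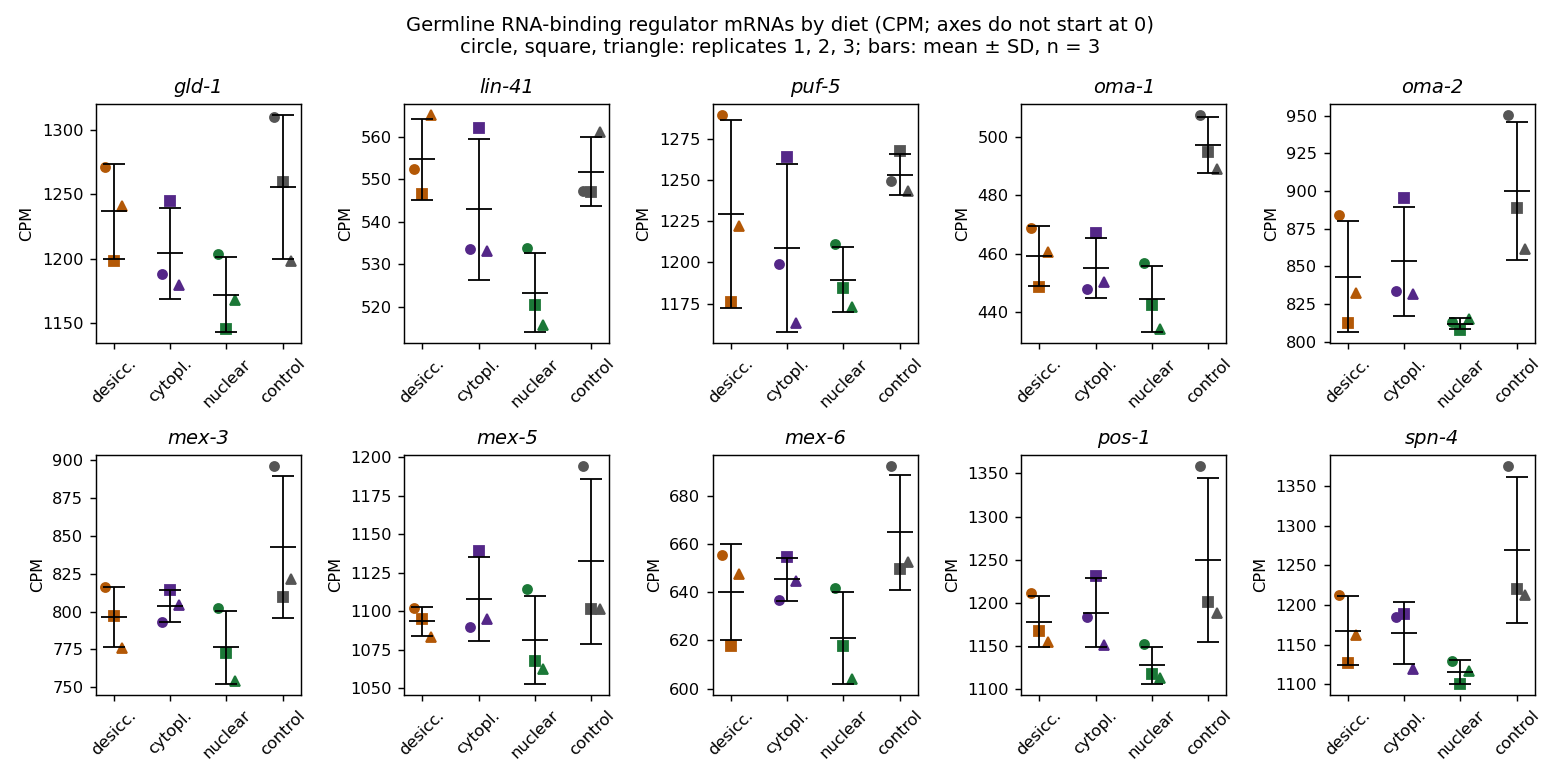
Level of each of the 10 mRNAs in CPM (y axes, which do not start at 0) in the 3 libraries of each diet (x axis). Symbols are libraries and bars are means ± SD (n = 3). For oma-1 all 9 thymus libraries lie below the lowest control library, at 489 CPM, and control replicate 1 is the highest of the 12 libraries for 8 of the 10 genes, all but lin-41 and puf-5.

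gld-1 encodes a KH-domain protein that represses translation of many mRNAs in meiotic prophase and is needed for oocyte development. It had 1271, 1198 and 1241 CPM with desiccated thymus, 1188, 1245 and 1179.5 CPM with the cytoplasmic extract and 1203, 1145 and 1168 CPM with the nuclear extract, against 1310.4, 1259.6 and 1198 CPM in the control. The nuclear extract and control libraries overlapped, since nuclear extract replicate 1 lay above control replicate 3. The log2 fold change against the control was -0.02 with desiccated thymus, -0.06 with the cytoplasmic extract and -0.10 with the nuclear extract (SE 0.0400). The last missed the threshold (Benjamini-Hochberg adjusted p = 0.107 over 14610 genes, quasi-likelihood test of edgeR). It passed without control replicate 3 (adjusted p = 0.0456) and with DESeq2 (0.0328).

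lin-41 encodes a TRIM-NHL protein that keeps growing oocytes from maturing too early, and it is also known as a let-7 target in the larval skin. It had 552, 547 and 565 CPM with desiccated thymus, 534, 562 and 533 CPM with the cytoplasmic extract and 534, 520.5 and 516 CPM with the nuclear extract, against 547, 547 and 561 CPM in the control. Desiccated thymus and the control overlapped almost fully, while all 3 nuclear extract libraries lay below all 3 controls. Its log2 fold change with the nuclear extract was -0.08 (95% interval -0.15 to -0.0045), which did not pass the adjusted test in edgeR (adjusted p = 0.143) and did in DESeq2 (0.0304). With desiccated thymus the estimate was 0.01, with an interval of -0.06 to 0.08, that is, -4.36% to 5.67%, and it was slightly below 0 with RLE factors, library totals, DESeq2 or without desiccated thymus replicate 3.

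puf-5 encodes a Pumilio-family protein of late oogenesis. It had 1289.8, 1176 and 1222 CPM with desiccated thymus, 1199, 1264 and 1163 CPM with the cytoplasmic extract and 1211, 1185 and 1173 CPM with the nuclear extract, against 1249, 1268 and 1243 CPM in the control. The controls were close together, and the nuclear extract libraries lay below them without overlap. The log2 fold change with the nuclear extract was -0.08 with an interval of -0.16 to 0.01 (adjusted p = 0.216, edgeR), and this was one of 2 mRNAs, with mex-5, that DESeq2 did not call in that comparison either.

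The paralogs oma-1 and oma-2 encode CCCH zinc finger proteins that act redundantly in oocyte maturation and repress stored mRNAs until after fertilization. oma-1 had 469, 449 and 460.5 CPM with desiccated thymus, 448, 467 and 450.5 CPM with the cytoplasmic extract and 457, 442 and 434 CPM with the nuclear extract, against 508, 495 and 489 CPM in the control. Every library of each thymus diet was below every control for oma-1. Such separation downward was found for 7.97% of all tested genes with desiccated thymus, 7.78% with the cytoplasmic extract and 15.4% with the nuclear extract. Among the 10, it held for 1 gene with desiccated thymus, 2 with the cytoplasmic extract and 8 with the nuclear extract. The 3 comparisons share the same control libraries, so they are not independent.

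With the nuclear extract oma-1 fell by 10.6%, or -0.16 in log2 units (SE 0.0345), and all 3 libraries were lower (adjusted p = 0.00740, edgeR). The call remained when any 1 library of either diet was left out, with adjusted p between 0.0113 and 0.0442. With desiccated thymus it was -0.11 (adjusted p = 0.0830) and with the cytoplasmic extract -0.13 (adjusted p = 0.112), and DESeq2 called both (0.0130 and 0.00915). oma-1 was also the only one of the 10 that passed the test of any difference among the 4 diets (edgeR, adjusted p = 0.0293), which 7.48% of all tested genes passed. That count was 2 in a fit blocked by replicate number, and 0 without control replicate 1, control replicate 2, cytoplasmic extract replicate 1, nuclear extract replicate 2 or nuclear extract replicate 3.

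oma-2 had 884, 812 and 832 CPM with desiccated thymus, 834, 895 and 832 CPM with the cytoplasmic extract and 813, 808 and 815 CPM with the nuclear extract, against 951, 889 and 861 CPM in the control. The nuclear extract libraries were the closest to each other of any diet and lay below all controls, while the other thymus diets overlapped with the control. oma-2 fell to 812 ± 3.66 CPM with the nuclear extract, against 900.2 ± 45.9 CPM in the control (SD, n = 3 each; log2 fold change -0.15, SE 0.0440, adjusted p = 0.0368, edgeR). The call was lost without any 1 of control replicate 1 (adjusted p = 0.141), control replicate 2 (0.0642) or nuclear extract replicate 1 (0.0769), 2 (0.108) or 3 (0.0998), and in a fit of these 2 groups alone (0.0547).

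The ratio of oma-2 to oma-1 within a library does not depend on how libraries are scaled. Per kilobase it averaged 2.14 ± 0.0512 with desiccated thymus, 2.18 ± 0.0435 with the cytoplasmic extract and 2.13 ± 0.0565 with the nuclear extract, against 2.11 ± 0.0668 in the control (SD, n = 3 each). The ranges of each thymus diet and the control overlapped, so no shift in the balance of the pair was seen beyond the spread between replicates. Reads that match both paralogs could have been counted for either or for neither, since how they were treated is not stated.

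**Figure D2:**
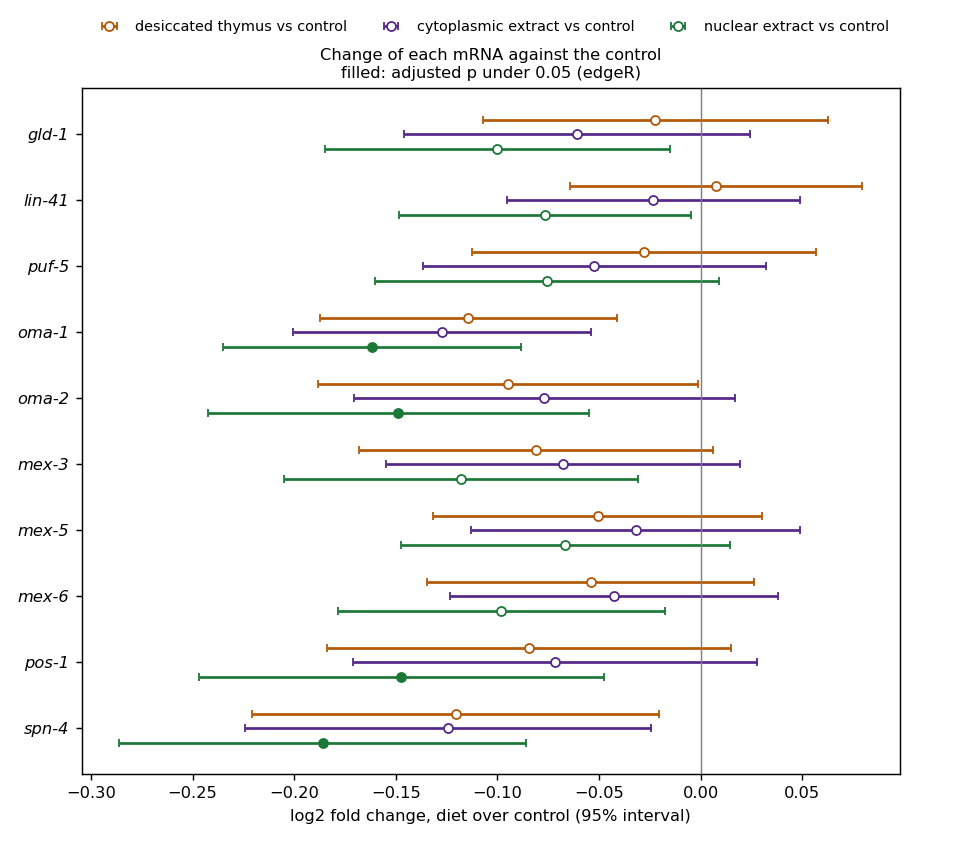
Log2 fold change of each mRNA (y axis) with each thymus diet over the control, with 95% intervals from the fit (x axis). Filled points passed an adjusted p of 0.05, which were oma-1, oma-2, pos-1 and spn-4 with the nuclear extract, and every estimate except that of lin-41 with desiccated thymus is below 0. Scaled to germline genes, gld-1, mex-3, mex-5, mex-6, puf-5 and lin-41 are above 0 with the cytoplasmic extract, and gld-1, puf-5 and lin-41 with desiccated thymus.

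The other 5 genes encode proteins known for their work in the early embryo. mex-3 encodes a KH-domain protein that represses pal-1, a homeobox gene of posterior fates, in oocytes and anterior blastomeres. It had 816, 797 and 776 CPM with desiccated thymus, 793, 814 and 804 CPM with the cytoplasmic extract and 802, 773 and 754 CPM with the nuclear extract, against 896, 809.8 and 822 CPM in the control. Only the nuclear extract libraries were all below the controls, by a small margin. The log2 fold change there was -0.12 (adjusted p = 0.0672, edgeR), and it passed with RLE size factors (0.0451) and DESeq2 (0.0180).

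The paralogs mex-5 and mex-6 encode CCCH zinc finger proteins that gather in the anterior of the zygote and act partly redundantly in its polarity. mex-5 had 1102, 1095 and 1084 CPM with desiccated thymus, 1089, 1139 and 1095 CPM with the cytoplasmic extract and 1114, 1068 and 1062 CPM with the nuclear extract, against 1194, 1102 and 1102 CPM in the control. Apart from control replicate 1, the controls lay within the range of the thymus diets. mex-6 had 656, 618 and 647 CPM with desiccated thymus, 637, 655 and 645 CPM with the cytoplasmic extract and 642, 618 and 604 CPM with the nuclear extract, against 692, 649 and 653 CPM in the control. Here the nuclear extract libraries lay below all controls. With the nuclear extract the log2 fold change was -0.07 for mex-5 (interval -0.15 to 0.01, adjusted p = 0.256) and -0.10 for mex-6 (interval -0.18 to -0.02, adjusted p = 0.0965, edgeR). The ratio of mex-5 to mex-6 per kilobase averaged 1.64 ± 0.0525 with desiccated thymus and 1.65 ± 0.0206 with the cytoplasmic extract. It was 1.67 ± 0.0149 with the nuclear extract and 1.63 ± 0.0188 in the control (SD, n = 3 each). The ranges with desiccated thymus (1.606 to 1.700) and the cytoplasmic extract (1.629 to 1.669) overlapped that of the control. The lowest ratio with the nuclear extract, 1.659, was above the highest in the control, 1.655, by a very small margin, and an exact permutation test of 3 against 3 libraries cannot go below p = 0.1.

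pos-1 encodes a CCCH zinc finger protein of posterior blastomeres that is needed for germline fate. It had 1211, 1168 and 1155 CPM with desiccated thymus, 1184, 1231 and 1151 CPM with the cytoplasmic extract and 1153, 1118 and 1113 CPM with the nuclear extract, against 1359, 1201 and 1188 CPM in the control. Control replicate 1 stood well above the other controls, and the nuclear extract libraries lay below all 3. pos-1 fell by 9.71% with the nuclear extract (log2 fold change -0.15, SE 0.0469, adjusted p = 0.0489, edgeR). Leaving out control replicate 1 ended the call (adjusted p = 0.201, log2 fold change -0.08), as did leaving out nuclear extract replicate 1 (0.0684), 2 (0.137) or 3 (0.154), and it was lost when only these 2 groups were fitted (0.0986).

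spn-4 encodes an RNA recognition motif protein needed for spindle orientation and cell fate in the early embryo. It had 1213, 1126 and 1162 CPM with desiccated thymus, 1185, 1189 and 1119 CPM with the cytoplasmic extract and 1129.7, 1100.4 and 1116 CPM with the nuclear extract, against 1375, 1219.5 and 1212 CPM in the control. Libraries of the cytoplasmic and nuclear extracts were all below the controls, and desiccated thymus replicate 1 lay just above control replicate 3. With the nuclear extract spn-4 fell by 12.1%, the lowest estimate of the 10 with all libraries (log2 fold change -0.19, SE 0.0471, adjusted p = 0.0186, edgeR). Leaving out control replicate 1 ended this call (adjusted p = 0.0682, log2 fold change -0.12), as did leaving out nuclear extract replicate 2 (0.0715) or 3 (0.0628). With desiccated thymus and with the cytoplasmic extract the estimate was -0.12 each (adjusted p = 0.201 and 0.282).

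In all, 4 of 10 mRNAs fell with the nuclear extract and none rose (none at an unadjusted p under 0.05 or with DESeq2), and 8 of 10 were lower at an unadjusted p under 0.05. Over all tested genes 4.72% fell and 8.62% rose with the nuclear extract, and 13.2% were lower at an unadjusted p under 0.05. The median log2 fold change was -0.11 over the 10 and 0.02 over all tested genes. Since the 10 moved together across libraries, these counts are not independent results. Leaving out control replicate 1 left 1 that fell, leaving out nuclear extract replicate 1 left 2, and leaving out nuclear extract replicate 2 or 3 left 1. DESeq2 called 8 of the 10, and of all the genes it called in that comparison 52.1% were higher. The share of all genes that DESeq2 called there is not given here, so its count has no background beside it.

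With desiccated thymus none of the 10 passed edgeR's test (3 lower and none higher at an unadjusted p under 0.05, 1 lower and none higher with DESeq2). Of all tested genes 0.938% fell, 3.00% rose and 6.43% were lower at an unadjusted p under 0.05 with desiccated thymus. The estimates ran from -0.12 to 0.01 with a median of -0.07, and 9 of 10 were below 0, as were 50.3% of all tested genes. With the cytoplasmic extract none of the 10 passed either (2 lower and none higher at an unadjusted p under 0.05, 1 lower and none higher with DESeq2), beside 0.192% of all tested genes that fell, 0.459% that rose and 4.73% that were lower at an unadjusted p under 0.05. The estimates ran from -0.13 to -0.02 with a median of -0.06, and 10 of 10 were below 0, as were 49.6% of all genes. The 10 mRNAs moved together across libraries and share the control libraries, so these signs are not independent results. Without control replicate 1 the median was -0.03 with desiccated thymus and -0.03 with the cytoplasmic extract. Scaled to germline genes, the median with the cytoplasmic extract was 0.0046. The lowest bound of the 10 intervals was -14.2% with desiccated thymus and -14.4% with the cytoplasmic extract, both for spn-4.

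Between the thymus diets none of the 10 mRNAs passed the adjusted test. For the nuclear against the cytoplasmic extract, estimates ran from -0.08 to -0.02. None passed in edgeR or DESeq2 or at an unadjusted p under 0.05, while 1.57% of all tested genes were called, 0.164% lower and 1.41% higher. oma-2 was the 1 mRNA whose libraries were all lower with the nuclear extract than with the cytoplasmic extract, a separation found for 10.7% of all genes. For the nuclear extract against desiccated thymus, estimates ran from -0.08 to -0.02 as well, and none passed in edgeR or DESeq2, beside 0.144% of all genes, 0.00684% lower and 0.137% higher (21 genes, and 41 with the replicate number as a block). lin-41 and pos-1 were the 2 mRNAs whose nuclear extract libraries were all lower there, a separation found for 9.56% of all genes. lin-41 was also the 1 gene lower at an unadjusted p under 0.05, with a log2 fold change of -0.08 (adjusted p = 0.323, edgeR). For desiccated thymus against the cytoplasmic extract, estimates ran from -0.02 to 0.04. None passed in edgeR or DESeq2 or at an unadjusted p under 0.05, beside 1.05% of all genes, 0.376% lower and 0.678% higher, and none was separated downward, beside 7.87% of all genes. Over these 3 comparisons the intervals of the 10 mRNAs reached from -11.4% to 8.95%. The falls of oma-1, oma-2, pos-1 and spn-4 were thus called against the control, and a difference between the nuclear extract and the other thymus diets was not detectable with 3 libraries each.

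How the libraries are scaled bears directly on changes of this size. With the 10 mRNAs scaled to the summed counts of 68 other germline genes, the median with the nuclear extract was -0.04, none of the 10 passed, and mex-5 was at 0.00. oma-1 was then at -0.09 (adjusted p = 0.0503, edgeR) and spn-4 at -0.11 (adjusted p = 0.0739). With scaling by library totals the median was -0.07 and none passed, and with library totals counted without ribosomal RNA genes 1 passed, oma-1 (adjusted p = 0.0206). With RLE size factors 5 passed. The share of all called genes that were higher with the nuclear extract was 64.6% with TMM, 92.7% with library totals and 89.9% with scaling to germline genes, and with the cytoplasmic extract it was 70.5%, 83.2% and 89.9%. For desiccated thymus against the cytoplasmic extract it was 64.3%, 36.6% and 49.4%.

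**Figure D3:**
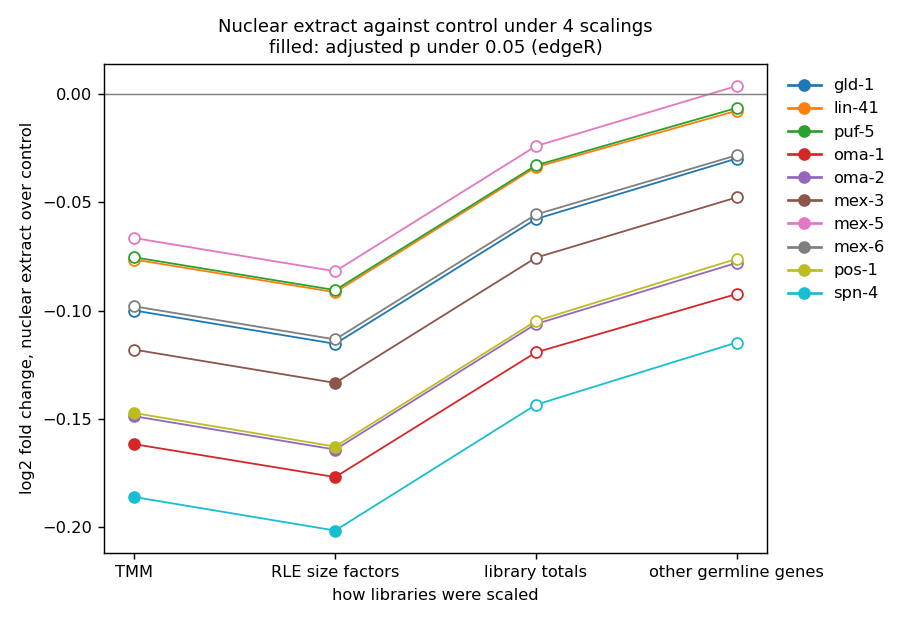
Log2 fold change of each mRNA with the nuclear extract over the control (y axis) when libraries were scaled by TMM, RLE size factors, library totals or the summed counts of other germline genes (x axis). Filled points passed an adjusted p of 0.05, and 4, 5, 0 and 0 of the 10 did so under the 4 scalings.

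A measure free of scaling is the share of each mRNA in the summed counts of the 10. The share of spn-4 was 12.6% ± 0.146 with the nuclear extract and 13.2% ± 0.398 in the control, and that of mex-5 was 12.2% ± 0.0899 with the nuclear extract and 11.8% ± 0.0928 in the control (SD, n = 3 each). For both, the 3 libraries of each diet did not overlap, with the share of spn-4 lower and that of mex-5 higher. An exact permutation test gives such a separation of 3 against 3 libraries p = 0.1, and both were picked from 10 shares. The shares of a library add to a fixed whole, so a lower share of 1 mRNA raises others. The share of oma-1 was 5.01% ± 0.0464 with the nuclear extract and 5.17% ± 0.120 in the control, with an overlap of the libraries. These shares are a description, since the 10 were chosen together. Across the 12 libraries the level of each mRNA followed the mean of the other 9, with Pearson's r in log2 CPM from 0.59 for lin-41 and 0.75 for puf-5 to 0.94 for oma-2. These points share their libraries, scaling and diets.

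Other regulators of the same kind were read from a list of 47 genes, which included further PUF and Nanos proteins, poly(A) polymerases and P granule components. Of these, 7 of 47 fell and 1 rose with the nuclear extract, and the list's median was -0.09, against 0.02 over all tested genes. Among all tested genes 4.72% fell and 8.62% rose with the nuclear extract. rnp-8, whose protein works with the poly(A) polymerase GLD-2 in oocyte development, had 219 ± 7.62 CPM with the nuclear extract and 262 ± 10.2 CPM in the control (log2 fold change -0.26, adjusted p = 0.000863, edgeR). nos-1, a Nanos gene of the germline, fell to 92.1 ± 1.92 CPM with the nuclear extract, against 109 ± 5.05 CPM in the control, and puf-3 fell by 0.16 on the log2 scale. glh-1, which encodes a Vasa-type helicase of P granules, rose by 0.18, a call that ended when control replicate 2, control replicate 3, nuclear extract replicate 1 or nuclear extract replicate 2 was left out. The number that fell was 4 when control replicate 1 or 2 was left out, 12 for control replicate 3 and 2 for nuclear extract replicate 2 or 3, and it was 1 with library totals, 2 with scaling to germline genes, which these genes partly make up, and 18 with DESeq2. With desiccated thymus 1 of 47 fell, pie-1 (-0.15, adjusted p = 0.0391), whose protein keeps germline blastomeres transcriptionally silent. Among all tested genes 0.938% fell with desiccated thymus. None of the 47 fell there when any single library of these 2 diets other than control replicate 3 was left out, with library totals, with germline scaling, with no filter or when 2 groups were fitted. With the cytoplasmic extract none of the 47 passed in edgeR (12 lower and none higher at an unadjusted p under 0.05, 4 lower and none higher with DESeq2). At that unadjusted level 4.73% of all tested genes were lower. No share of all genes is given for the DESeq2 counts.

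mRNAs that the 10 proteins are known to bind or regulate made a list of 19, of which 3 fell and none rose with the nuclear extract (median -0.10). For this list and the next, the shares of all tested genes with the nuclear extract were 4.72% lower and 8.62% higher. No share of all genes is given for the DESeq2 counts. The 3 that fell were cdc-25.3 (-0.24), a Cdc25 phosphatase gene, gna-2 (-0.16), which encodes an enzyme that makes a chitin precursor for the eggshell, and skn-1 (-0.16), a transcription factor gene of embryonic fate and stress responses. The count that fell was 1 when control replicate 1, control replicate 2 or nuclear extract replicate 2 was left out, 2 for nuclear extract replicate 1, 0 for nuclear extract replicate 3 and 7 for control replicate 3. It was 0 with library totals, 1 with germline scaling, 5 in a fit blocked by replicate number and 7 with DESeq2. Of 29 genes of kinases, polarity proteins and ubiquitin ligases that act on or with the 10 proteins, 4 fell and none rose (median -0.09). They were the cyclin B genes cyb-1 (-0.14) and cyb-3 (-0.12), egg-3 (-0.14), which encodes a protein of the egg cortex that holds the kinase MBK-2, and the Skp1-related ubiquitin ligase subunit gene skr-1 (-0.12). Leaving out control replicate 1 or nuclear extract replicate 2 left 1 of these calls, and leaving out nuclear extract replicate 3 left none. None fell with library totals, none fell and 1 rose with germline scaling, and 8 fell with DESeq2. With desiccated thymus 1 of the 29 rose, par-1 (0.21), which encodes a polarity kinase, and none fell, while DESeq2 gave 1 higher and 2 lower. In edgeR 3.00% of all tested genes rose and 0.938% fell with desiccated thymus, so 1 of 29 is near the share of all genes. None of the 29 rose there when control replicate 1 or 2 or desiccated thymus replicate 1 or 2 was left out, with library totals or when 2 groups were fitted. None of the 19 passed with desiccated thymus in edgeR (5 lower and none higher at an unadjusted p under 0.05, beside 6.43% of all tested genes that were lower, and 0 in DESeq2). With the cytoplasmic extract none of the 19 or the 29 passed in edgeR or DESeq2 (3 and 3 at an unadjusted p under 0.05). At that level 4.73% of all tested genes were lower, and the share that was higher is not given here. nos-2 stands both in the list of 47 and in the list of 19, and rme-2 both in the list of 19 and among the oocyte and eggshell genes below.

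Markers of the tissues in the sample moved beside the 10 mRNAs, and their part in these results was not tested. Summed over 10 oocyte and eggshell genes, the level was 16541 to 17106 CPM with the nuclear extract and 18075 to 18678 CPM in the control, without overlap. The same sum was 17322 to 17745 CPM with desiccated thymus and 16943 to 17686 CPM with the cytoplasmic extract, also below every control library. The diets share the same control libraries. Among single genes, downward separation was found for 15.4% with the nuclear extract, 7.97% with desiccated thymus and 7.78% with the cytoplasmic extract. As background for the calls below, 4.72% of all tested genes fell and 8.62% rose with the nuclear extract. With desiccated thymus 0.938% fell and 3.00% rose. Of the 10 oocyte and eggshell genes 6 fell with the nuclear extract and none rose (median -0.12). The count was between 2, when nuclear extract replicate 3 was left out, and 6, when control replicate 3 was. It was 3 for nuclear extract replicate 1 and 4 for each other library of these 2 diets left out, and 0 with library totals and 2 with germline scaling. Over 21 meiotic genes the sum was 2122 to 2181 CPM with the nuclear extract and 2202 to 2407 CPM in the control, and 2 fell (rad-51 and cosa-1, median -0.09), with 1 call when control replicate 2 or nuclear extract replicate 1 was left out and none when control replicate 1 or nuclear extract replicate 2 or 3 was. Over 12 genes of zygotic transcription in early embryos the sum was 31.7 to 37.1 CPM with the nuclear extract and 37.9 to 45.2 CPM in the control, with end-1, tbx-35 and hlh-26 at 0 in the control and med-1 at 0 with the nuclear extract. The 6 of these that could be tested all had negative fold changes (median -0.33). None of the 6 passed in edgeR or DESeq2, and 1 was lower at an unadjusted p under 0.05, as were 13.2% of all tested genes. Sperm genes summed to 49.2 to 63.2 CPM with the nuclear extract and 49.8 to 66.4 CPM in the control, gonadal sheath genes to 179 to 197 CPM with the nuclear extract and 183 to 199 CPM in the control, and 8 intestine genes to 1299.9 to 1338 CPM with the nuclear extract and 1097 to 1193 CPM in the control. Of the intestine genes 4 rose and none fell, and 2 rose when nuclear extract replicate 3 was left out. With desiccated thymus the intestine genes summed to 1221 to 1438 CPM, above every control library, and 3 rose (2 when desiccated thymus replicate 2 was left out), and with the cytoplasmic extract they summed to 1127 to 1347 CPM, overlapping the control. The share of all genes separated upward is not given here, so the upward separations have no background beside them. Hypodermis genes summed to 57.2 to 105 CPM with the nuclear extract and 34.96 to 71.9 CPM in the control, body wall muscle genes to 1028 to 1259.8 CPM with the nuclear extract and 799.8 to 1177 CPM in the control, and neuron genes to 305 to 315 CPM with the nuclear extract and 304 to 319.6 CPM in the control. Among single genes with the nuclear extract, 2 of 6 hypodermis genes rose (dpy-7 and rol-6, median 1.72, and 1 when any single library of the nuclear extract or the control was left out) and none fell. That median was 0.74 when nuclear extract replicate 2 was left out. The median of these genes was 1.36 with desiccated thymus and 1.54 with the cytoplasmic extract, neither with a call in the main edgeR fit. Of 6 neuron genes rab-3 and unc-13 rose and snb-1 fell (median 0.39), with 1 rise when control replicate 1 or 2 was left out, no call when nuclear extract replicate 3 was, and no fall with library totals or germline scaling. Of 4 gonadal sheath genes ceh-18 rose with the nuclear extract and none fell. With desiccated thymus 1 of the 4 also rose, a call lost without control replicate 1 or 2 or any desiccated thymus replicate. None passed with the cytoplasmic extract, and 1 was higher with the nuclear than with the cytoplasmic extract. The single marker genes were named after their values were seen.

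**Figure D4:**
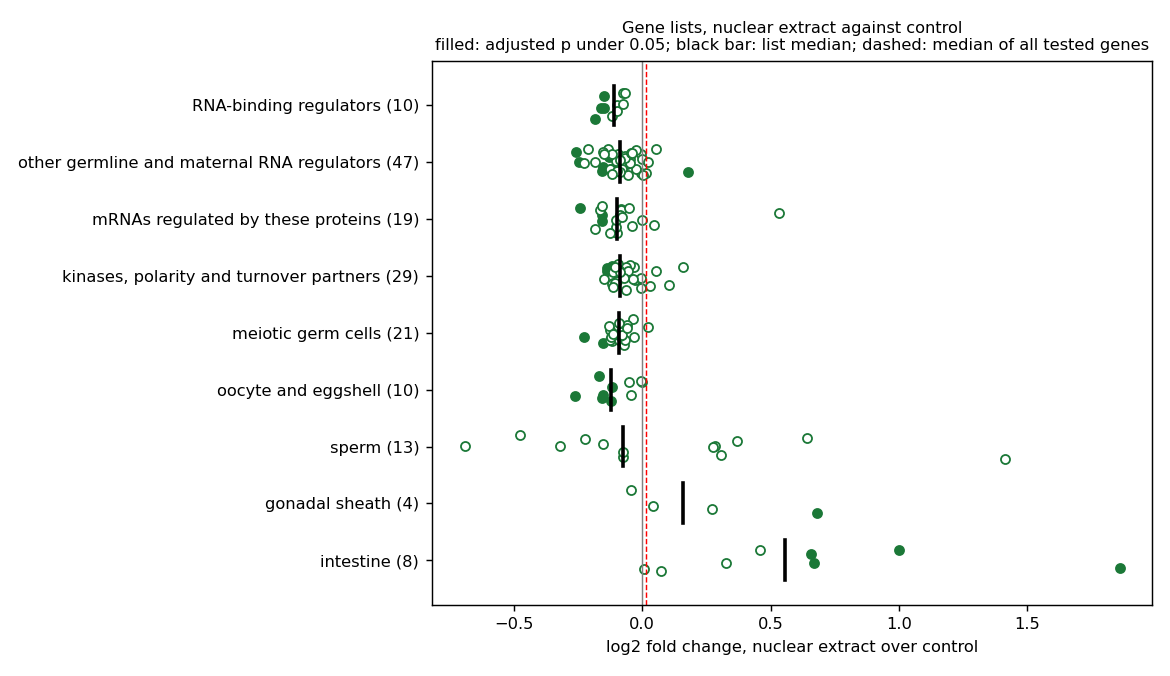
Log2 fold change with the nuclear extract over the control (x axis) of the genes of each list (y axis, number tested in brackets), with filled points for an adjusted p under 0.05, black bars for list medians and a dashed line for the median of all tested genes, 0.02. Medians of the regulator, meiotic and oocyte lists lie to the left of that line, at -0.11 for the 10 RNA-binding regulators and -0.12 for oocyte and eggshell genes, while the median of the intestine genes is 0.56.

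Among 5808 other named genes with at least 5 CPM, those whose log2 CPM over the 12 libraries was most like the mean of the 10 were slx-1 (Pearson's r = 0.98), gln-5 (0.97), daz-1 (0.97), gyg-2 (0.97) and puf-3 (0.97). daz-1 encodes an RNA-binding protein needed for oogenesis, gln-5 is a glutamine synthetase gene and gyg-2 a glycogenin gene. daz-1 and puf-3 belong to the list of 47 regulators. Their log2 fold changes with the nuclear extract were between -0.25 (gln-5) and -0.12 (daz-1), which the choice of genes by likeness to the 10 largely fixes, so they are given without a test.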

How the data were processed

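Per the labels' protocols, total RNA of whole worms was enriched with oligo(dT) beads and sequenced in paired reads, while the molecule field names nuclear RNA. The authors deposited read counts per gene as whole numbers, with Trimmomatic, STAR, featureCounts and DESeq2 named in the submitters' processing notes. Chromosome accessions in the table are those of WBcel235. The sources do not give the strand setting or how reads with several matches were counted. Columns TD, TCF and TNF were given to samples by the initials of the titles.

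Of 46929 genes, 14610 passed filterByExpr (minimum count 10). Library sizes were reset to these genes, and 1 mean per diet was fitted to 12 libraries with edgeR 4.0.16 in R 4.3.3 (TMM, quasi-likelihood, 8 residual degrees of freedom). Tests were two-sided, with Benjamini-Hochberg adjustment over all tested genes and a threshold of 0.05. Intervals cover 95%. Alternatives were other scalings, no filter, DESeq2 1.42.0, fits of 2 groups, a replicate block and leaving out each library. A library was left out only in comparisons that include its own diet and in the test over 4 diets. The computations were checked on simulated data. The 10 genes, the lists and the tests were chosen with earlier results of these data known. All 10 genes are named, with up to 4 called genes of largest change per pathway list and comparison, and the 5 genes of most similar pattern.

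Replicates differed beyond sampling noise (chi-square over degrees of freedom between 5.68 and 306). The highest values, 306 and 192, were those of pairs with desiccated thymus replicate 3, in which ribosomal RNA genes took 14.01% of the counts. These values come from counts of all tested genes without TMM factors, and the part of ribosomal RNA in them was not tested. All 12 libraries were kept. Same-numbered libraries deviated together between desiccated thymus and the control (correlations 0.149 to 0.471), the nuclear extract and the control (0.330 to 0.669) and the nuclear extract and desiccated thymus (0.197 to 0.473), a pairing seen in these values only. For the cytoplasmic extract replicate 1 did not (-0.358 to -0.242).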

Additional observations from a re-analysis of the deposited data

How the results depend on the processing

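With the nuclear extract, 4 of the 10 mRNAs fell, and the number was 8 with DESeq2, 2 when 2 groups were fitted, 1 with library totals without ribosomal RNA genes (chosen after seeing the data), 0 with library totals, 0 with germline scaling and 1 to 5 when 1 library was left out. The 4 calls held in the fit with the replicate block, which changed no call among the 10 against the control. The test over 4 diets called 1 of the 10 (oma-1), 3 with DESeq2, 2 without a filter, 2 with the replicate block, 0 with library totals, with or without ribosomal RNA genes, 0 with germline scaling and 0 to 1 with 1 library left out. With desiccated thymus and with the cytoplasmic extract DESeq2 called 1 each and leaving out a library 0 each. Over all genes, calls with desiccated thymus numbered 575, 872 with DESeq2, 321 with 2 groups and 300 to 513 with 1 library left out. With the cytoplasmic extract they numbered 95, 340 with DESeq2, 244 without a filter, 146 with library totals without ribosomal RNA genes, 44 with 2 groups and 30 to 147 with 1 library left out. With the nuclear extract they numbered 1948, 1097 with 2 groups and 851 to 2137 with 1 library left out. The nuclear against the cytoplasmic extract gave 230, 473 with DESeq2, 357 without a filter and 87 to 156 with 1 library left out. The nuclear extract against desiccated thymus gave 21, 251 with DESeq2, 235 with 2 groups, 150 without a filter, 113 with library totals, 41 with the replicate block and 5 to 14 with 1 library left out. Desiccated thymus against the cytoplasmic extract gave 154, 342 with DESeq2, 274 without a filter, 270 with 2 groups, 85 with germline scaling and 26 to 79 with 1 library left out. The test over 4 diets gave 1093, 2010 with DESeq2 and 655 to 1171 with 1 library left out. The causes of these shifts were not tested.

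Signs turned only in log2 fold changes that did not pass. With germline scaling they turned with desiccated thymus for gld-1 (0.0192) and puf-5 (0.0122), with the cytoplasmic extract for gld-1 (0.00764), mex-3 (0.00149), mex-5 (0.0369), mex-6 (0.0259), puf-5 (0.0149) and lin-41 (0.0438), and with the nuclear extract for mex-5 (0.00359). With library totals without ribosomal RNA genes they turned with desiccated thymus for gld-1 (0.00593) and puf-5 (0.000324), and with the cytoplasmic extract for mex-5 (0.00609) and lin-41 (0.0146). lin-41 with desiccated thymus was at -0.00382 with RLE factors, -0.0346 with library totals and -0.00634 with DESeq2. With library totals lin-41 was at 0.00699 with the cytoplasmic extract against the control and at 0.000762 with the nuclear extract against desiccated thymus. With 1 library left out, log2 fold changes ranged from -0.0547 to 0.00930 (gld-1), -0.0643 to 0.00311 (puf-5) and -0.00999 to 0.0204 (lin-41) with desiccated thymus, and from -0.0558 to 0.00752 (mex-5) with the cytoplasmic extract. Counting error was at most 1.00%, while the SD among the 3 libraries of a diet reached 7.60% of the mean, for pos-1 in the control. For oma-2 with the nuclear extract that SD was only 0.451% of the mean, below the counting error of its libraries (0.683% to 0.717%). The spread between libraries limits what 3 libraries per diet can resolve.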
